A study of Mus musculus with 32 samples.

Results

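The glucocorticoid receptor, the mineralocorticoid receptor and genes that act with or downstream of them were followed in the frontal cortex (FCtx) of ethanol-drinking mice. The members were chosen by gene symbol from a list of 10: the receptors Nr3c1 and Nr3c2, the receptor co-chaperones Fkbp4 and Fkbp5, the steroid-activating enzyme Hsd11b1, and the hormone-responsive genes Tsc22d3, Sgk1, Cdkn1a, Errfi1 and Zbtb16. All probes carrying these symbols were taken, which gave 14 of the 25697 probes on the array, for 8 of the 10 genes. Nr3c2 and Zbtb16 had no probe under their symbol or a synonym and were not analysed here. Of the 14 probes, 11 probes of 7 genes were detected widely enough to be tested, out of 10187 tested probes in all.

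The samples were 32 female F1 mice of a C57BL/6J and FVB/NJ cross, 20 ethanol-treated and 12 control, each read on 1 Illumina MouseRef-8 v2.0 array. The arrays' labels name 1 direction of the cross and the study's methods name reciprocal crosses. Ethanol-treated mice chose between 20% ethanol and water in sessions of 3 h in the dark for 20 days, and were killed 20 h after the last session. That interval is from the study's methods. The study's discussion gives a later time and adds that the mice could have been in acute withdrawal. Controls were matched mice with no ethanol. Each chip carries 8 arrays: chips 1 and 2 carried ethanol-treated mice, chip 4 carried controls, and chip 3 carried 4 of each, with the ethanol-treated mice at the odd positions (A, C, E, G) and the controls at the even positions (B, D, F, H). Treatment and chip can therefore be compared apart on chip 3 only, and there treatment cannot be told apart from odd or even position. FCtx is a mixture of cell types, so that fewer cells of a type and less RNA per cell cannot be told apart for any gene below.

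Corticosterone, the main glucocorticoid of the mouse, crosses into brain cells and binds the receptors encoded by Nr3c1 and Nr3c2. The unbound receptor sits in the cytoplasm in a complex with Hsp90 and a co-chaperone of the FKBP family. Fkbp5 holds the receptor in a state of low hormone affinity and Fkbp4 favours its movement to the nucleus. The bound receptor pairs up on glucocorticoid response elements in DNA and raises transcription of genes such as Fkbp5, Tsc22d3, Sgk1 and Per1, so that Fkbp5 forms a short negative feedback loop on the receptor. In brain these genes are widely used as a readout of glucocorticoid exposure, and Sgk1 is strongly expressed in oligodendrocytes.

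The DNA that lies before the start sites is shown for 3 of the members whose levels are described in most detail below, because the receptor is known to act on these genes. RefSeq sequences (mouse, GRCm38.p6) gave 17 windows of 300 bases (250 before and 50 after a start) for 8 of the listed genes. They were searched on both strands for the palindromic response element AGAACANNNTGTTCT and for AGAACA, 1 arm of it, which every full element also contains. The 250 bases before each start are printed 5′ to 3′ in the direction of transcription, with the matched bases in capitals: Sgk1 at chr10:21993640-21993889 (plus strand), Tsc22d3 at chrX:140600523-140600772 (minus strand) and Fkbp5 at chr17:28486150-28486399 (minus strand).
Sgk1: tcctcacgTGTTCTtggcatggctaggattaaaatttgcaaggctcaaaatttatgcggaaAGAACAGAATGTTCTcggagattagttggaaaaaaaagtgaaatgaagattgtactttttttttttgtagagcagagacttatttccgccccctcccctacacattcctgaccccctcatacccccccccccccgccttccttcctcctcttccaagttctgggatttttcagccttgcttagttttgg
Tsc22d3: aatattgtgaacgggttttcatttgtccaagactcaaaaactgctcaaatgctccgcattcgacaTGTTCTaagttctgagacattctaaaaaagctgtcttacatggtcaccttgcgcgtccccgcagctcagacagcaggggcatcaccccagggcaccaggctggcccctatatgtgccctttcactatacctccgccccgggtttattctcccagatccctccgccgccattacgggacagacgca
Fkbp5: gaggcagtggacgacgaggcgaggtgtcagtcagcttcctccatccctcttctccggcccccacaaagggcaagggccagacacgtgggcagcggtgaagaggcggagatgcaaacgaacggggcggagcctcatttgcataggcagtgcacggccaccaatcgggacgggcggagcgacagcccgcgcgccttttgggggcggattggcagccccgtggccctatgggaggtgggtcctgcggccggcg

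The full element, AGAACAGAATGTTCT, was found in 1 of the 17 windows, 189 bases before a start of Sgk1. Over all 32851 windows of the reference table it was found in 3 (0.00913%). The single arm was found in 4 of the 17 windows, namely 3 of the 6 Sgk1 windows and 1 of the 3 Tsc22d3 windows, where it began 185 bases before the start. The windows printed for Sgk1 and Tsc22d3 are ones that hold a match, and the other windows of these genes are not shown. The single arm was held by 6233 of all 32851 windows. The Fkbp5 window holds neither set of letters, which says only that they are not in these bases. A match describes the letters and is not evidence of binding.

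The receptor itself was not measured above background. The single Nr3c1 probe was detected, at a detection p-value below 0.01, on 1 of the 32 arrays, with signals between 130.8 and 207.9 (median 170.6), against median signals of whole arrays between 146.2 and 203.3. No comparison of Nr3c1 between ethanol-treated mice and controls was therefore made. A probe for 1 isoform of Hsd11b1 was detected on 0 of 32 arrays, and the dimmest of the 3 Cdkn1a probes on 13 of 32. These 3 probes were not tested. Of the other members, Tsc22d3, Fkbp4 and Sgk1 were the brightest (median signals of 2384.8, 2193.6 and 2170.0), but signals of different probes also depend on the probe and do not rank the genes.

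Over all arrays, Fkbp5 and Fkbp4 were lower in ethanol-treated mice at an FDR below 10%, and no member passed an FDR of 1%. Values are on a log2 scale after variance stabilization and quantile normalization, and differences are ethanol minus control by limma with Benjamini-Hochberg adjustment over all tested probes. Signals before normalization differed little, with medians of 304.9 (ethanol) and 308.8 (control) for Fkbp5, and 2198.8 and 2177.5 for Fkbp4. Median signals of whole arrays lay between 166.1 and 203.3 for ethanol and between 146.2 and 187 for control. Of the 11 member probes, 0 passed an FDR of 1%, where 8.27% of all tested probes did, and 2 passed an FDR of 10%, where 25.4% did. The same 2 probes had an unadjusted p below 0.05, as had 3240 of the 10187 tested probes. The share of member probes called was no higher than that of all probes.

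Fkbp5, on chromosome 17, had values between 8.15 and 8.76 (median 8.34) in the 20 ethanol-treated mice and between 8.35 and 9.03 (median 8.57) in the 12 controls. The groups overlapped, and 18 of 20 ethanol-treated mice lay below the median of the controls. The means were 8.38 ± 0.17 (SD, n = 20) and 8.59 ± 0.19 (SD, n = 12), a difference of -0.21 (standard error 0.06, limma adjusted p = 0.0132). The Fkbp5 probe was dim (signals of 211.1 to 562.5), and with normexp background correction the difference was -0.45 (limma adjusted p = 0.0143).

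On chip 3, Fkbp5 was 8.73, 8.31, 8.30 and 8.55 in the ethanol-treated mice and 8.35, 8.73, 8.47 and 9.03 in the controls. These groups overlapped widely. The difference was -0.17 (standard error 0.12, 95% confidence interval -0.43 to 0.09, limma adjusted p = 0.406, exact permutation p = 0.4, two-sided). In the comparison between chips (1 and 2 for ethanol, 4 for control), 15 of 16 ethanol-treated mice lay below the median of the controls, with a difference of -0.21 (standard error 0.06, limma adjusted p = 0.0132). The effect on chip 3 and that between chips were 0.04 apart ( 95% confidence interval -0.24 to 0.32, limma adjusted p = 0.895). Fitted with a fixed term for chip, which leaves the contrast to chip 3, Fkbp5 differed by -0.17 (limma adjusted p = 0.428).

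Fkbp4, on chromosome 6, had values between 10.88 and 11.35 (median 11.04) in ethanol-treated mice and between 10.96 and 11.47 (median 11.24) in controls. Again 18 of 20 ethanol-treated mice lay below the median of the controls. The means were 11.06 ± 0.13 (SD, n = 20) and 11.21 ± 0.14 (SD, n = 12), a difference of -0.15 (standard error 0.05, limma adjusted p = 0.0205).

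The difference for Fkbp4 was seen between chips and was near 0 within chip 3. On chip 3, Fkbp4 was 11.05, 11.12, 11.13 and 11.10 in ethanol-treated mice and 10.96, 11.05, 11.07 and 11.26 in controls. The ethanol-treated mice lay inside the range of the controls, with a difference of 0.01 (95% confidence interval -0.12 to 0.15, limma adjusted p = 0.92). Between chips 1 and 2 and chip 4 the difference was -0.23 (standard error 0.05, limma adjusted p = 0.00317), the only call of a member at an FDR below 1% in that comparison, where 11.8% of all tested probes were called. Control mouse C66 of chip 4 had the fewest detected probes (9480), the lowest Fkbp4 signal (1208.4) and the highest Fkbp4 value (11.47) of all mice. Without C66 the difference between these chips was -0.20 (limma adjusted p = 0.0109). The effect on chip 3 and that between chips differed by 0.24 (standard error 0.09, limma adjusted p = 0.078), where 16.3% of all tested probes passed an FDR of 10%. Fkbp4 also varied where treatment did not: controls of chip 3 were lower than controls of chip 4 (-0.19, limma adjusted p = 0.0605, with 19.3% of all tested probes called at an FDR below 10%), and mice at odd positions were lower than those at even positions on chips 1, 2 and 4 (-0.12, limma adjusted p = 0.0562, with 20.1% called). With chip as a fixed block, the direction over all arrays turned (0.01, limma adjusted p = 0.944).

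**Figure D1:**
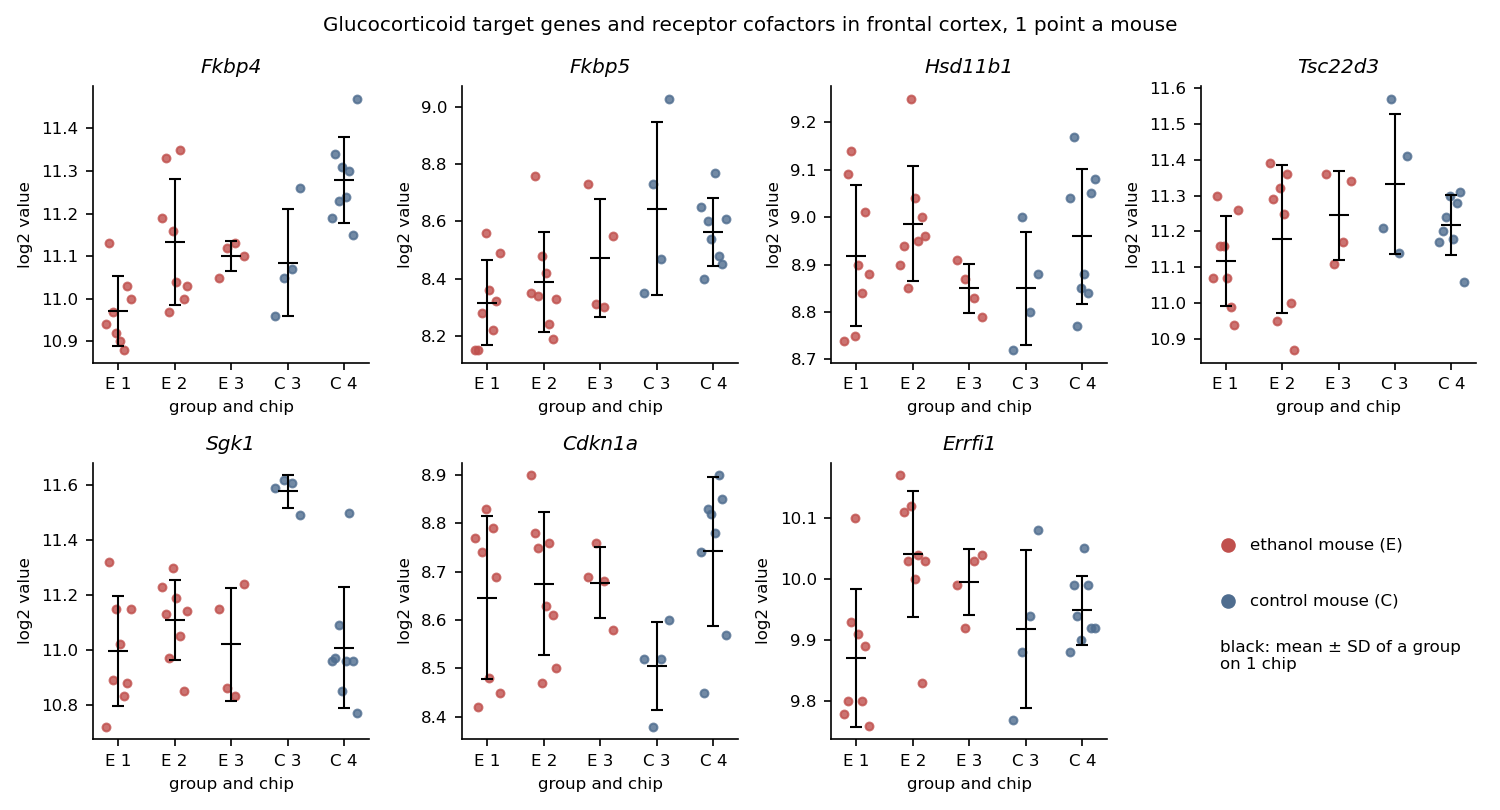
Log2 values (y axes) of the 7 members with a tested probe, by group and chip (x axes; E is ethanol, C is control), with 1 point a mouse and black bars for the mean ± SD of each group on 1 chip. Sgk1 in the 4 controls of chip 3 sits at 11.49 to 11.62, above all 4 ethanol-treated mice of that chip and above 7 of the 8 controls of chip 4.

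Sgk1, a kinase that is a direct target of the receptor, was the member with the largest difference on chip 3. On that chip, Sgk1 was 11.15, 10.86, 10.83 and 11.24 in ethanol-treated mice and 11.59, 11.62, 11.61 and 11.49 in controls. All 4 ethanol-treated mice lay below all 4 controls. The means were 11.02 ± 0.21 (SD, n = 4) and 11.58 ± 0.06 (SD, n = 4), a difference of -0.56 (standard error 0.08, limma adjusted p = 0.00134). By the exact two-sided permutation test p was 0.0286, the smallest that 4 against 4 allows. Sgk1 was the only member called at an FDR below 1% on chip 3, where 3.13% of all tested probes were called, and it was called at that level with each of the 8 mice left out (limma adjusted p between 5.2e-04 and 0.00647). With normexp background correction, under which 0 probes of the array were called at an FDR below 1% on chip 3 and 1097 at an FDR below 10%, Sgk1 differed by -0.59 (limma adjusted p = 0.0247).

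Between the other chips the difference was near 0. Sgk1 lay between 10.72 and 11.32 (median 11.09) in the 16 ethanol-treated mice of chips 1 and 2 and between 10.77 and 11.50 (median 10.96) in the 8 controls of chip 4. The groups overlapped over almost their whole range, with a difference of 0.05 (95% confidence interval -0.11 to 0.20, limma adjusted p = 0.706). The effect on chip 3 and the effect between chips differed by -0.60 (standard error 0.14, limma adjusted p = 0.0052), where 3.54% of all tested probes were called at an FDR below 1%.

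It was the controls of chip 3 that stood apart. They were higher than the controls of chip 4 by 0.57 (standard error 0.10, limma adjusted p = 0.00152), with 4.35% of all tested probes called in that comparison at an FDR below 1%. Of the 28 other mice, 27 lay below the lowest control of chip 3, the exception being control mouse C65 at 11.50. The 4 ethanol-treated mice of chip 3 lay within the range of the ethanol-treated mice of chips 1 and 2. Over all arrays, the means of Sgk1 were 11.04 ± 0.18 (SD, n = 20) for ethanol and 11.20 ± 0.33 (SD, n = 12) for control, a difference of -0.15 (standard error 0.08, limma adjusted p = 0.202).

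Position and tissue content moved with these values on chip 3. The controls there were all at even positions. On the other chips, mice at odd positions were lower in Sgk1 than mice at even positions by -0.12 (95% confidence interval -0.26 to 0.02, limma adjusted p = 0.244), and with both chip and position in the fit the difference for treatment was -0.44 (limma adjusted p = 0.213). Oligodendrocyte markers were lower in ethanol-treated mice of chip 3 for 10 of 10 tested genes of a list of 11 (Ermn was not detected widely enough), 7 of them at an FDR below 10% by limma, where 899 of the 10187 tested probes were lower at that level, with a median difference of -0.38 against -0.00044 over all tested probes. The oligodendrocyte score, the mean of the centred log2 values of these genes, ranged from -0.27 to -0.08 in ethanol-treated mice and from -0.15 to 0.55 in controls of chip 3. The controls of chip 3 (C52, C54, C55, C56) scored 0.215, 0.028, 0.555 and -0.15. Their Sgk1 values were 11.59, 11.62, 11.61 and 11.49 in that order. The ethanol-treated mice of chip 3 (A46, A47, A49, A50) scored -0.162, -0.075, -0.267 and -0.232. Their Sgk1 values were 11.15, 10.86, 10.83 and 11.24 in that order. The part of oligodendrocyte content in the Sgk1 difference was not tested.

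Within groups, Sgk1 correlated positively with the oligodendrocyte score, but not past the threshold after adjustment. These relations with marker scores were computed after the values had been seen, 28 in all (7 genes, 2 scores, 2 groups). In ethanol-treated mice Pearson r was 0.571 (permutation p = 0.0043, adjusted 0.06) and Spearman rho 0.49 (permutation p = 0.03, adjusted 0.144), with r of 0.627 on chip 1 and 0.819 on chip 2. Without the 2 mice farthest from the median score, r was 0.365, so that the relation in ethanol-treated mice rests in part on those mice. In controls r was 0.627 (permutation p = 0.027, adjusted 0.124) and rho 0.72 (permutation p = 0.011, adjusted 0.087), with r of 0.702 on chip 4 and 0.42 without the 2 farthest mice.

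Cdkn1a, which encodes the cell cycle inhibitor p21, had almost the same mean in both groups over all arrays (8.66 ± 0.14, SD, n = 20, and 8.66 ± 0.18, SD, n = 12; difference 0.00, 95% confidence interval -0.11 to 0.11, limma adjusted p = 0.987 for its brightest probe). On chip 3 its brightest probe was 8.69, 8.76, 8.68 and 8.58 in ethanol-treated mice and 8.52, 8.38, 8.52 and 8.60 in controls. Of the 4 ethanol-treated mice, 3 lay above all controls, with a difference of 0.18 (standard error 0.06, limma adjusted p = 0.081, exact permutation p = 0.0571, two-sided). With Sgk1 it made 2 of 11 member probes called at an FDR below 10% on chip 3, where 17.1% of all tested probes were. The other tested probe of Cdkn1a, which was dimmer, differed by 0.06 (limma adjusted p = 0.643), and the adjusted p of the brightest probe lay between 0.104 and 0.213 when 1 of the mice A46, A47, A49, C52, C54 or C55 was left out. Here too controls of chip 3 and chip 4 differed (-0.24, limma adjusted p = 0.0489), with the controls of chip 3 lower.

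The brightest Cdkn1a probe followed the olfactory bulb markers. The other tested probe of Cdkn1a was not set against them, so the relation is that of 1 probe. In the 20 ethanol-treated mice, Cdkn1a and the olfactory bulb score (5 tested genes of a list of 7; Eomes and Tbx21 were not detected widely enough) correlated with Pearson r of 0.787 (permutation p = 6e-05, adjusted 0.0017) and Spearman rho of 0.696 (permutation p = 0.0009, adjusted 0.025). The relation held within chips, with r of 0.891 on chip 1 and 0.789 on chip 2, and without the 2 mice farthest from the median score (0.699). In the 12 controls r was 0.755 (permutation p = 0.0067, adjusted 0.062) and rho 0.706 (permutation p = 0.012, adjusted 0.087), with r of 0.797 on chip 4. On chip 3 all 5 olfactory bulb genes were higher in ethanol-treated mice, 3 of them at an FDR below 1% by limma, where 150 of the 10187 tested probes were higher at that level. The score ranged there from 0.13 to 0.39 in ethanol-treated mice and from -0.56 to -0.09 in controls. Sgk1 ran against this score in ethanol-treated mice (r of -0.406, permutation p = 0.076, adjusted 0.304), with -0.537 on chip 1 and -0.542 on chip 2. In controls r for Sgk1 was -0.132 (permutation p = 0.676, adjusted 0.886), and 0.315 on chip 4. The part of olfactory bulb tissue in the Cdkn1a and Sgk1 differences on chip 3 was not tested.

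**Figure D2:**
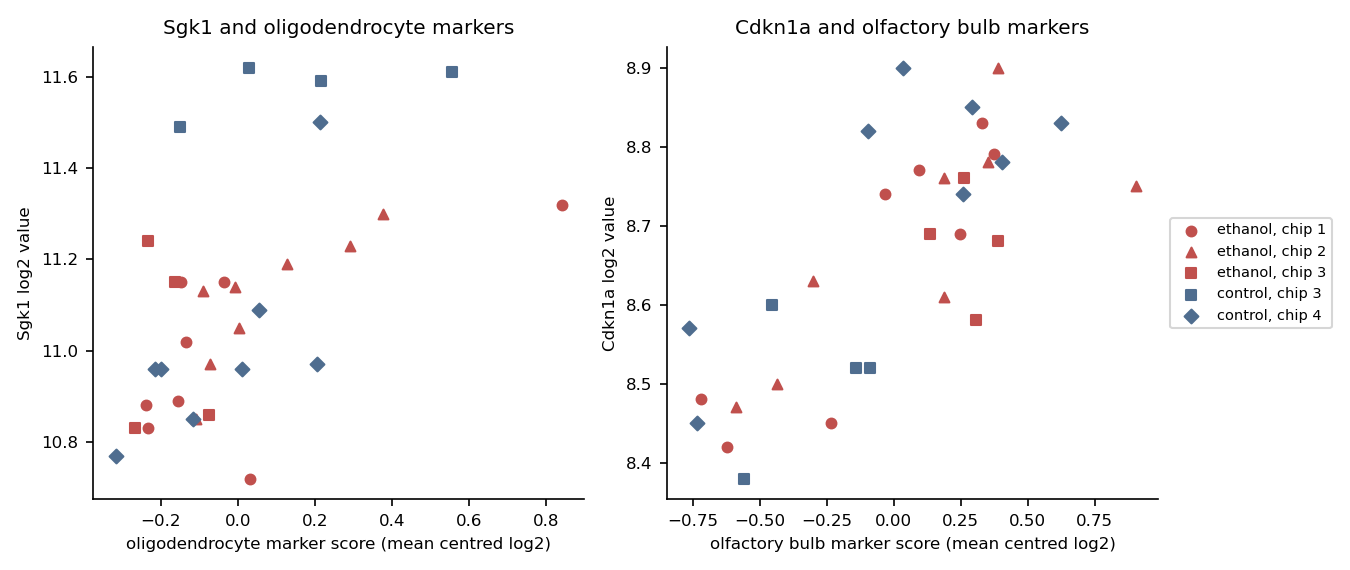
Sgk1 against the oligodendrocyte marker score and Cdkn1a against the olfactory bulb marker score (x axes, mean centred log2 of the marker genes; y axes, log2 values), with 1 point a mouse, coloured by group and shaped by chip. The 4 controls of chip 3 lie at Sgk1 values of 11.49 to 11.62 over scores of -0.15 to 0.55. The brightest Cdkn1a probe, the one drawn, correlates with its score at r of 0.787 in ethanol-treated mice and 0.755 in controls.

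Tsc22d3 encodes GILZ, a leucine zipper protein that mediates anti-inflammatory actions of glucocorticoids. Its bright probe was 11.17 ± 0.16 (SD, n = 20; 10.87 to 11.39, median 11.16) in ethanol-treated mice and 11.26 ± 0.14 (SD, n = 12; 11.06 to 11.57, median 11.22) in controls. The groups overlapped and the difference was -0.09 (95% confidence interval -0.20 to 0.02, limma adjusted p = 0.252). On chip 3 it was -0.09 (limma adjusted p = 0.567). A second, dim probe that the array annotates to another transcript differed by 0.01 (95% confidence interval -0.10 to 0.13, limma adjusted p = 0.89), so that the 2 probes lay on opposite sides of 0, each within its interval.

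Hsd11b1 encodes the enzyme that regenerates active corticosterone inside cells. Its 3 tested probes share between 32 and 44 of their 50 bases and are therefore near repeats of 1 measurement. The brightest had values between 8.74 and 9.25 (median 8.91) in ethanol-treated mice and between 8.72 and 9.17 (median 8.88) in controls, a difference of 0.01 (95% confidence interval -0.09 to 0.10, limma adjusted p = 0.926). The others differed by -0.03 (limma adjusted p = 0.733) and -0.07 (limma adjusted p = 0.232). Between chips 1 and 2 and chip 4, the last of these passed an FDR of 10% (-0.12, limma adjusted p = 0.0673), so that 3 of 11 member probes passed there, with Fkbp4 and Fkbp5, where 31.7% of all tested probes did. On chip 3 the 3 probes lay between 0.00 and 0.07.

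Errfi1, an inhibitor of the epidermal growth factor receptor that glucocorticoids induce, averaged 9.96 ± 0.12 (SD, n = 20; 9.76 to 10.17, median 9.99) in ethanol-treated mice and 9.94 ± 0.08 (SD, n = 12; 9.77 to 10.08, median 9.93) in controls. The difference was 0.03 (95% confidence interval -0.06 to 0.11, limma adjusted p = 0.704). Within the ethanol-treated mice, chip 1 lay below chip 2 by -0.17 (limma adjusted p = 0.133), a gap wider than that between the groups. Of the 11 member probes, 0 passed an FDR of 10% between chips 1 and 2 by limma, where 1.96% of all tested probes did, and 3 had an unadjusted p-value below 0.05 (Errfi1, Fkbp4 and the dim probe of Tsc22d3), as had 1519 of the 10187 tested probes.

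**Figure D3:**
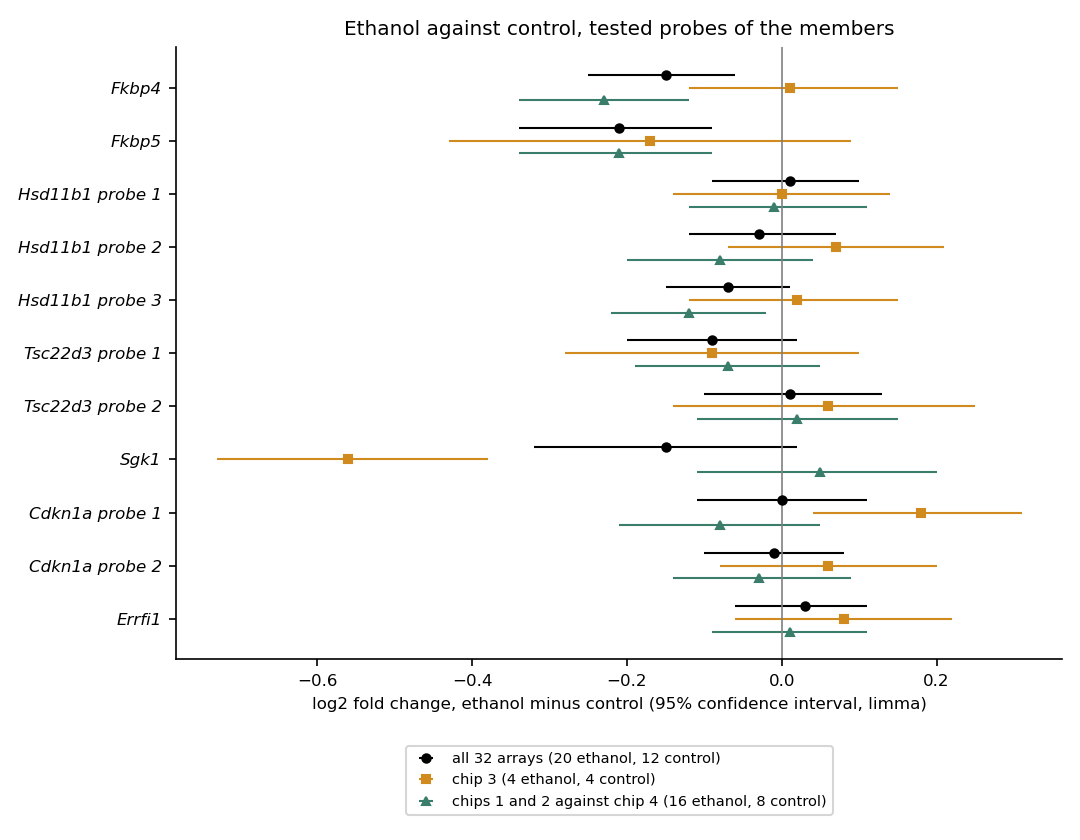
Log2 fold changes, ethanol minus control, with 95% confidence intervals by limma (x axis) for the 11 tested member probes (y axis, with probe 1 the brightest of a gene), over all arrays, on chip 3, and between chips 1 and 2 and chip 4. Fkbp5 lies at -0.21, -0.17 and -0.21 in the 3 comparisons, whereas Sgk1 lies at -0.15, -0.56 and 0.05 and Fkbp4 at -0.15, 0.01 and -0.23.

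To see whether the members moved together from mouse to mouse, all 21 pairs of the 7 genes were correlated within each group, giving 42 relations. In ethanol-treated mice 18 of 21 correlations were positive, with a median r of 0.311 and a range from -0.428 to 0.628. In controls 12 of 21 were positive, with a median of 0.052 and a range from -0.668 to 0.593. No pair passed an adjusted p of 0.05 by Pearson r in either group. Whether the groups differ in these correlations was not tested.

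The highest values in ethanol-treated mice were those of Tsc22d3 with Sgk1 and with Fkbp4. Tsc22d3 and Sgk1, both direct targets of the receptor, gave r of 0.628 (permutation p = 0.0038, adjusted 0.081) and rho of 0.633 (permutation p = 0.0033, adjusted 0.07) over 20 mice, with r of 0.771 on chip 1, 0.568 on chip 2 and 0.757 without the 2 mice farthest from the median of Tsc22d3. Tsc22d3 and Fkbp4 gave r of 0.617 (permutation p = 0.0037, adjusted 0.081) and rho of 0.693 (permutation p = 0.0011, adjusted 0.048), with r of 0.526 on chip 1 and 0.769 on chip 2. In the 12 controls the same pairs gave r of 0.459 (permutation p = 0.135, adjusted 0.342) and -0.345 (permutation p = 0.274, adjusted 0.501). Tsc22d3, like Sgk1, correlated positively with the oligodendrocyte score in ethanol-treated mice (r of 0.384, permutation p = 0.088, adjusted 0.309). For Tsc22d3 and the score, r was 0.689 on chip 1, 0.583 on chip 2 and -0.094 in controls. The part of oligodendrocyte content in the correlation of Tsc22d3 and Sgk1 was not tested.

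Fkbp5 correlated with Errfi1 at r of 0.529 (permutation p = 0.015, adjusted 0.153) and rho of 0.532 (adjusted 0.162) in ethanol-treated mice, where chips 1 and 2 gave r of 0.605 and 0.55. It correlated with Sgk1 at r of 0.506 (permutation p = 0.023, adjusted 0.16) and with Tsc22d3 at r of 0.434 (permutation p = 0.055, adjusted 0.252). In controls, Fkbp5 and Errfi1 gave r of 0.593 (permutation p = 0.044, adjusted 0.233), which fell to -0.021 without the 2 mice farthest from the median of Fkbp5 and so rests on those mice. The lowest value in controls was that of Fkbp4 and Sgk1, with r of -0.668 (permutation p = 0.018, adjusted 0.153). It was -0.206 on chip 4 and -0.248 after centring within chip, so that most of it lay between the chips.

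These correlations also depended on how arrays were scaled. When arrays were scaled to a common median instead of quantile-normalized, 5 pairs in ethanol-treated mice and 1 pair in controls passed an adjusted p of 0.05 by r, and all 21 correlations in controls were positive, with a median of 0.553. With values centred within chip, 0 pairs passed in either group.

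**Figure D4:**
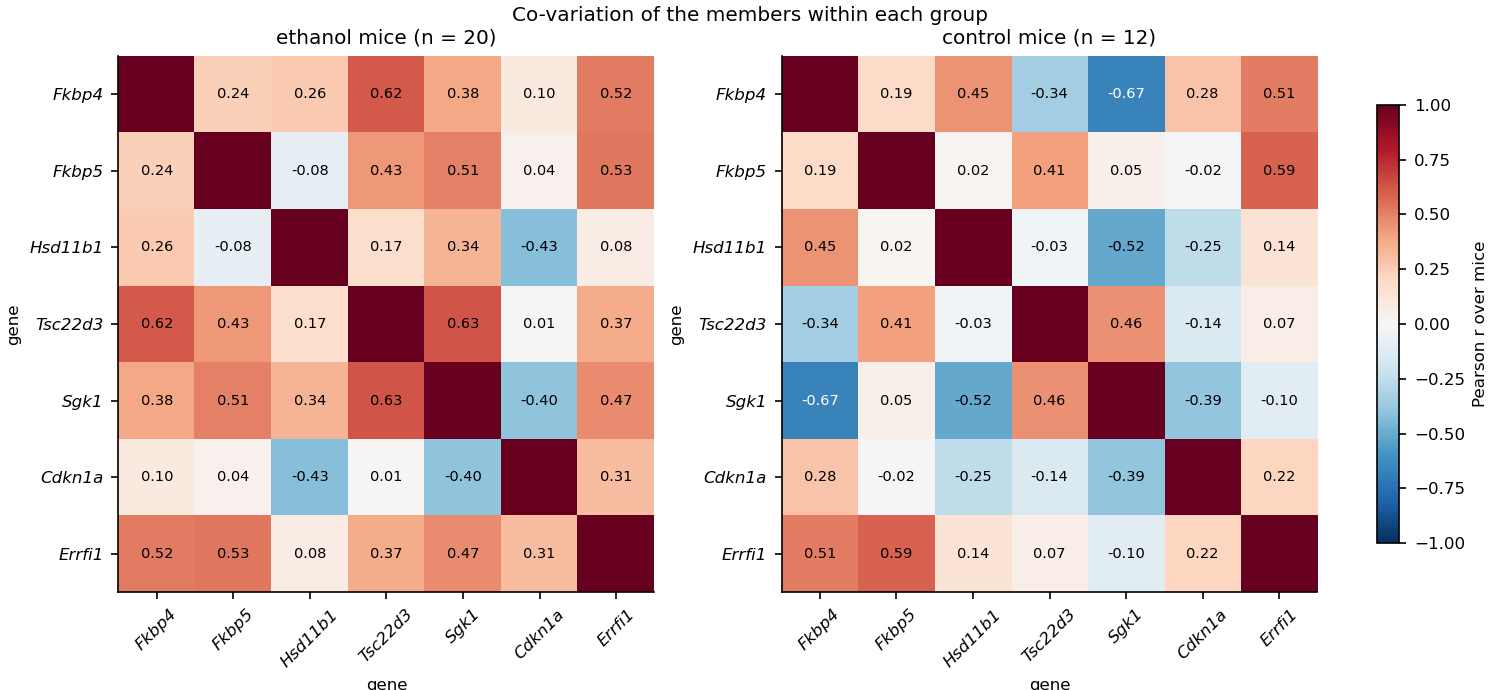
Pearson r over mice for each pair of the 7 members (both axes list the genes), in 20 ethanol-treated mice (left) and 12 controls (right), with red for positive and blue for negative r. In ethanol-treated mice 18 of 21 pairs are positive, and in controls 12 of 21.

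Likeness to the other genes of the array was measured as Pearson r over 32 arrays after centring each probe within its chip and group, as a description. The genes most like Fkbp5 were Parp1 (0.732), S3-12 (0.659) and LOC381302 (0.638). S3-12 is the older symbol of Plin4, a lipid droplet gene that glucocorticoids induce. Those most like Sgk1 were Pam (0.725), Rap1gap (0.679) and the myelin gene Mal (0.647), which is also in the oligodendrocyte list. Those most like Tsc22d3 were Klhl24 (0.627), LOC666904 (0.614) and Ankrd40 (0.601).

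Other genes known to rise with glucocorticoids were taken from a list of 21, of which 18 were tested. The list was chosen with earlier results of these data known. Its shares beside those of all tested probes are therefore a description and not an independent test. Of these, 5 were lower in ethanol-treated mice at an FDR below 1% over all arrays (Ddit4, Per1, Mt1, Sult1a1 and Plin4) and 0 were higher, where 4.67% of all tested probes were lower and 3.59% higher. At an FDR below 10%, 8 of 18 were lower, with Fam107a, Bcl6 and Cebpb (named after their values were seen), and 0 higher, where 13.5% and 11.9% of all tested probes were. Fam107a differed by -0.36 on chip 3 (limma adjusted p = 0.0249) and -0.12 between chips (limma adjusted p = 0.287). It also varied within a treatment. Odd positions of chips 1, 2 and 4 were lower (-0.27, limma adjusted p = 0.00249), and controls of chip 3 exceeded those of chip 4 (0.30, limma adjusted p = 0.0414). The median difference over the 18 genes was -0.08, against -0.0031 over all tested probes, and 15 of 18 lay below 0. The remaining 10 genes, among them Dusp1, Nfkbia and Klf9, did not pass, with differences between -0.09 and 0.14.

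Ddit4, an inhibitor of mTOR signalling, lay between 8.86 and 9.34 (median 9.17) in ethanol-treated mice and between 9.14 and 9.65 (median 9.41) in controls. All 20 ethanol-treated mice were below the median of the controls. The difference was -0.30 over all arrays (standard error 0.06, limma adjusted p = 3.8e-04), -0.34 on chip 3 (limma adjusted p = 0.0249) and -0.27 between chips (limma adjusted p = 0.00266).

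Mt1, a metallothionein, lay between 13.69 and 14.17 (median 13.97) in ethanol-treated mice and between 14.07 and 14.30 (median 14.22) in controls, again with all 20 below the median of the controls. The difference was -0.24 over all arrays (standard error 0.04, limma adjusted p = 2.0e-04), -0.23 on chip 3 (limma adjusted p = 0.0335) and -0.24 between chips (limma adjusted p = 0.0014). On chips 1, 2 and 4, odd positions differed from even ones by -0.14 for Ddit4 (limma adjusted p = 0.0842) and by -0.08 for Mt1 (limma adjusted p = 0.237), the same sign as on chip 3, where position and treatment cannot be told apart.

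Per1, a clock gene with a response element for the receptor, is read by 2 probes. The brighter lay between 9.88 and 10.60 (median 10.27) in ethanol-treated mice and between 10.23 and 10.81 (median 10.53) in controls. It differed by -0.27 over all arrays (limma adjusted p = 0.00341), and the dimmer probe by -0.26 (limma adjusted p = 3.4e-04). On chip 3 the differences were -0.41 (limma adjusted p = 0.00159) and -0.39 (limma adjusted p = 0.00132), and Per1 was the only gene of the list called at an FDR below 1% there, where 1.66% of all tested probes were lower. Between chips they were -0.19 (limma adjusted p = 0.0689) and -0.20 (limma adjusted p = 0.0133). Controls of chip 3 were higher than controls of chip 4 by 0.22 for the brighter probe (limma adjusted p = 0.111) and 0.18 for the dimmer (limma adjusted p = 0.0587). Odd positions of chips 1, 2 and 4 were below even ones by -0.15 for the brighter probe (limma adjusted p = 0.145) and -0.14 for the dimmer (limma adjusted p = 0.0603), and on chip 3 every ethanol-treated mouse was at an odd position, so that position and treatment cannot be told apart there.

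Sult1a1, a sulfotransferase, and Plin4 were called over all arrays and between chips. Sult1a1 was 9.09 ± 0.15 (SD, n = 20) against 9.32 ± 0.16 (SD, n = 12), a difference of -0.22 (limma adjusted p = 0.00347), with -0.26 between chips (limma adjusted p = 0.00253) and -0.09 on chip 3 (limma adjusted p = 0.535). Plin4 was 8.02 ± 0.13 (SD, n = 20) against 8.21 ± 0.15 (SD, n = 12), a difference of -0.20 (limma adjusted p = 0.0045), with -0.23 between chips (limma adjusted p = 0.00448) and -0.11 on chip 3 (limma adjusted p = 0.442). The Plin4 probe was dim, and with normexp background correction the difference was -0.64 (limma adjusted p = 0.0115). The difference between the chip 3 effect and the effect between chips did not pass for either gene (limma adjusted p = 0.379 and 0.512).

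Bcl6, a transcriptional repressor, went in opposite directions. It was higher on chip 3 (0.19, limma adjusted p = 0.059) and lower between chips (-0.35, limma adjusted p = 2.7e-04), and the effects differed by 0.54 (standard error 0.08, limma adjusted p = 1.1e-04). Fitted with a fixed term for chip, which leaves the contrast to the 8 mice of chip 3, 0 of the 18 genes passed an FDR of 1% over all arrays by limma, where 21 probes of the array did. Immediate early genes, which share regulators with several of these genes, were lower in ethanol-treated mice over all arrays for 7 of 7 tested genes. Of these, 3 passed an FDR of 1% by limma, where 4.67% of all tested probes were lower. On chip 3, 4 of 7 were lower, with a median difference of -0.05. There 0 passed an FDR of 1%, where 1.66% of all tested probes were lower. Between chips, 7 of 7 were lower, with a median difference of -0.17. The part of the immediate early genes in the list's values was not tested.

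**Figure D5:**
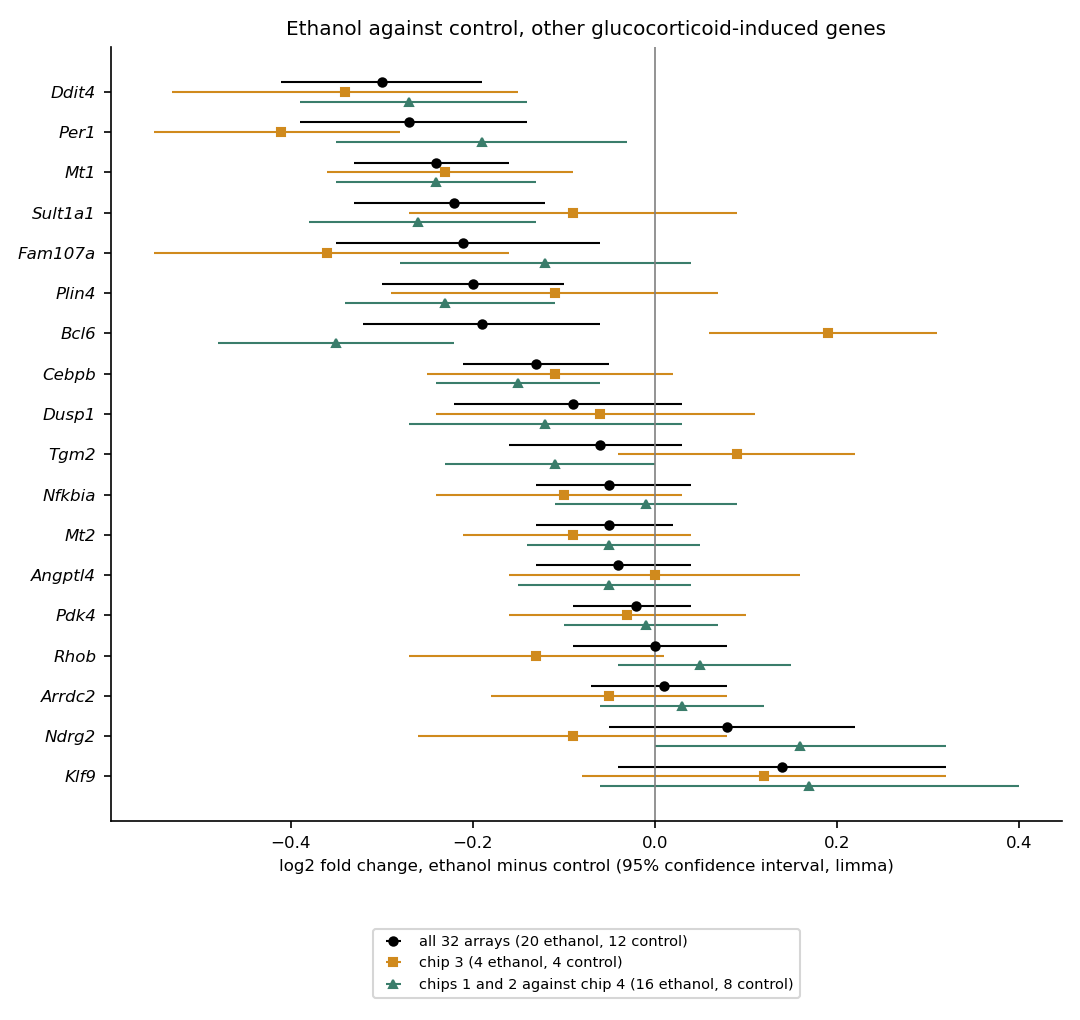
Log2 fold changes, ethanol minus control, with 95% confidence intervals by limma (x axis) for the 18 tested genes of the list of other glucocorticoid-induced genes (y axis), over all arrays, on chip 3, and between chips 1 and 2 and chip 4. Ddit4, Per1, Mt1, Sult1a1 and Plin4 lie below 0 in all 3 comparisons, as do others of the list, among them Fam107a and Cebpb. The comparison over all arrays holds the arrays of both other comparisons. Bcl6 lies at 0.19 on chip 3 and -0.35 between chips.

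Among the genes that supply the ligand or control its release, 2 of 8 were tested. Crhbp, which binds the releasing hormone CRH, differed by 0.10 (limma adjusted p = 0.157), and Crhr1, the CRH receptor, by 0.02 (limma adjusted p = 0.855). Among receptor coregulators 4 of 11 were tested and 0 passed an FDR of 1%, where 8.27% of all tested probes did. Med1, a subunit of the Mediator complex, was lower at an FDR below 10% (-0.14, limma adjusted p = 0.0195), where 13.5% of all tested probes were lower. Med1 is also named after its value was seen.

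Of 13 chaperones that assemble the receptor complex, 10 were tested. At an FDR below 1%, 1 was higher and 1 lower by the brightest probe, where 3.59% of all tested probes were higher and 4.67% lower. Hspa8, the constitutive Hsp70, averaged 13.31 ± 0.26 (SD, n = 20) with ethanol and 12.75 ± 0.51 (SD, n = 12) without, a difference of 0.57 (limma adjusted p = 0.00152). The controls of chip 4 averaged 12.53 ± 0.48 (SD, n = 8) and those of chip 3 averaged 13.18 ± 0.15 (SD, n = 4), and on chip 3 the difference was 0.07 (limma adjusted p = 0.664). Within a treatment, Hspa8 was lower at odd than at even positions of chips 1, 2 and 4 (-0.38, limma adjusted p = 0.00811), and chip 1 lay below chip 2 by -0.38 (limma adjusted p = 0.0556). The part of position and chip in the Hspa8 difference was not tested. The effect on chip 3 and that between chips differed by -0.73 (standard error 0.22, limma adjusted p = 0.0287). The 3 probes of Hsp90ab1, a cytosolic Hsp90, disagreed in direction: the brightest differed by -0.11 (limma adjusted p = 0.00769) and the others by 0.49 (limma adjusted p = 0.00297) and 0.44 (limma adjusted p = 0.00174). On chip 3 the 3 probes differed by -0.03, 0.10 and 0.01, with limma adjusted p between 0.499 and 0.933.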

How the data were processed

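FCtx RNA of 32 mice was read on Illumina MouseRef-8 v2.0 arrays. The authors deposited 1 non-normalized table with the bead signal intensity and detection p-value of 25697 probes on each array, beside the spread and number of the beads behind each signal. The software that exported it and any background step are not given in the sources used here. Signal intensities were variance-stabilized on each array from the bead spread, put on a log2 scale and quantile-normalized. Probes detected (p-value below 0.01) on 24 or more arrays (75%) were tested with limma 3.58.1 in R 4.3.3, the test the study's methods name (the probe filter for this test was chosen here), with Benjamini-Hochberg adjustment over 10187 probes and calls at an FDR below 1% (also counted at 10%). The transform and tests were tested on simulated data. Correlations used 100000 permutations (scipy 1.17.1).

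Arrays were compared over all 32 mice, within chip 3, between chips 1 and 2 and chip 4, and between chips and positions of 1 treatment. RNA extraction batches held both groups per the methods but are not tied to arrays by the labels. Arrays had 9480 to 11544 detected probes, and their number limits the precision. The members and gene lists were chosen with earlier results of these data known. A gene with several tested probes is given by the brightest. Named genes were all members, the 3 genes most like Fkbp5, Tsc22d3 and Sgk1, and the pathway genes called at an FDR below 1% over all arrays. Choroid plexus markers (0 of 4 tested) gave no value. Marker score relations and fits without mouse A13 were added after seeing the data. Alternatives were the transform, normexp background correction (offset 16), median scaling, the probe filter, chip and position terms, array weights and left-out mice.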

Additional observations from a re-analysis of the deposited data

Results flagged for a closer look

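Of the 49 tested probes of members and pathway genes, 8 (16.3%) had an effect on chip 3 that differed from the effect between chips at an FDR below 10% by limma, a share equal to the 16.3% of all tested probes that did. Among the members these were Sgk1, with a difference of -0.60 (standard error 0.14, adjusted p = 0.0052), and Fkbp4, with 0.24 (standard error 0.09, adjusted p = 0.078). Among the genes of the pathway lists, Bcl6 gave 0.54 (standard error 0.08, limma adjusted p = 1.1e-04) and the chaperone Dnajb1 gave 0.51 (standard error 0.10, limma adjusted p = 0.00178). Hspa8 gave -0.73 (standard error 0.22, limma adjusted p = 0.0287) and Ppp5c, a phosphatase of the receptor complex, gave -0.35 (standard error 0.12, limma adjusted p = 0.0531). The dimmer probes of Hsp90ab1 gave -0.65 (standard error 0.16, limma adjusted p = 0.00843) and -0.59 (standard error 0.20, limma adjusted p = 0.0538).

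Dixon's test was run 140 times, each time on 1 probe in the mice of 1 group and chip. In 7 of these tests 1 mouse stood apart, which chance alone gives in about 1 of 20 tests. The tests share mice and are not independent. Sgk1 was 11.50 in control mouse C65 of chip 4, with the next at 11.09. The dimmer Cdkn1a probe was 7.89 in control mouse C66, with the next at 8.12. Among pathway genes, Mt1 was 13.69 in ethanol-treated mouse A32 (next 13.93), Sult1a1 was 9.01 in ethanol-treated mouse A47 (next 9.27) and Ppp5c was 9.62 in control mouse C55 (next 9.51). The dimmer probes of Hsp90ab1 were 10.04 in ethanol-treated mouse A29 (next 10.49) and 9.91 in control mouse C57 (next 10.51).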

How the results depend on the processing

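Of 668 alternative values for single probes and pairs, 581 kept their direction and side of the threshold, 52 lost the threshold, 9 gained it and 26 reversed. Of 118 counts, 81 stayed within 1.5 times. A value that passed in neither fit counted as kept, and so did a count that stayed without any call. These totals are therefore not a measure of robustness. The causes of the changes were not tested. No paired analysis was possible because the groups share no replicate numbers. Chip and treatment can be separated on 8 arrays only, and dim probes (Fkbp5, Cdkn1a, Plin4) lie close to background.

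Over all arrays, member probes called at an FDR below 10% numbered 1 with median scaling, 1 with chip as a fixed block (Sgk1), 0 with chip as a random block and 0 with chip and position. The other glucocorticoid-induced genes called at an FDR below 1% numbered 1, 0, 2 and 0 in the same fits. All probes called at an FDR below 1% fell from 842 to 105, 21, 79 and 2, and at 10% from 2584 to 1048, 675, 999 and 5. On chip 3, normexp left 0 member probes at 1% and 1 at 10%, median scaling 1 at 10%, and leaving out 1 mouse gave 1 to 2 at 10%. All probes called there at 10% numbered 1097, 1603 and 1017 to 1758 in the same fits, and 0 at 1% with normexp. Between chips, 0 member probes passed 1% with median scaling (379 of all probes) or without mouse C66 (996), and 0 passed 10% with median scaling (1463). For the difference of effects, normexp, median scaling and testing all probes each left 0 at 1% and 1 at 10%. All probes called there numbered 229, 84 and 244 at 1% and 1489, 836 and 1227 at 10%. Between chips 1 and 2, median scaling gave 2 at 1% and 5 at 10% (195 and 2134 of all probes). Between controls of chips 3 and 4, normexp left 0 and median scaling 0 at 1%, and median scaling 1 at 10%. All probes called there numbered 146 and 24 at 1%, and 722 at 10% with median scaling. For position, median scaling left 0 at 10% (859 of all probes, and 0 at 1%). Pairs of members past an adjusted p of 0.05 numbered 5 (ethanol) and 1 (control) with median scaling, 1 and 1 centred within chip and position, and 1 (ethanol) without mouse A13.

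These values reversed. With chip as a fixed block, and with position added, all-array differences were 0.01 and 0.13 for Fkbp4, 0.06 and 0.08 for the dimmer Cdkn1a probe, 0.07 and 0.04, and 0.02 and 0.08, for the dimmer Hsd11b1 probes, 0.19 and 0.15 for Bcl6 and 0.21 and 0.31 for Dnajb1; Ppp5c was -0.05 with the block. On chip 3, Fkbp4 was -0.01 with median scaling and -0.03 without mouse C52, and a dimmer Hsd11b1 probe was -0.01 with median scaling and without mouse C52 or A47. Between chips, Hsd11b1 was 0.05 with median scaling and 0.01 without mouse C66. With median scaling the difference of effects was -0.01 for Errfi1, -0.05 for Fkbp5, -0.08 for Hsd11b1 (-0.01 without mouse C66) and -0.04 for the dim Tsc22d3 probe, and Fkbp4 and Tsc22d3 correlated at 0.648 in controls.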

Other observations

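By its brightest probe, Hsd11b1 ran against the olfactory bulb score, the opposite of the brightest Cdkn1a probe, without passing after adjustment over the 28 relations. In ethanol-treated mice Pearson r was -0.549 (permutation p = 0.011, adjusted 0.079) and Spearman rho -0.553 (permutation p = 0.012, adjusted 0.087), with r of -0.397 on chip 1, -0.798 on chip 2 and -0.599 without the 2 mice farthest from the median score. In controls r was -0.468 (permutation p = 0.123, adjusted 0.332) and rho -0.378 (adjusted 0.491), with r of -0.681 on chip 4. Cdkn1a and Hsd11b1 correlated at r of -0.428 in ethanol-treated mice (permutation p = 0.06, adjusted 0.252) and, after centring within chip, at -0.735 in controls (adjusted permutation p = 0.061). The olfactory bulb score itself spanned -0.72 to 0.90 in ethanol-treated mice and -0.76 to 0.62 in controls, and its genes were higher at odd positions on chips 1, 2 and 4 for 5 of 5 tested genes (median 0.33), 2 of them at an FDR below 10% by limma, where 1031 of the 10187 tested probes were higher at that level.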
